A study of Drosophila melanogaster with 5 samples.

Results

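The genes described here are the matrix metalloproteinases Mmp1 and Mmp2, their inhibitor Timp, the collagen hydroxylases PH4alphaEFB and Plod, and the export factor Tango1. They were chosen by gene symbol for these roles, and all 6 were found among the 17807 genes of the count table. Matrix metalloproteinases are zinc proteases that cut basement membrane and other proteins outside the cell, and in the fly a single tissue inhibitor, Timp, can hold them in check. Collagen IV, which in the larva is made by hemocytes and by the fat body, has to be hydroxylated on prolines and lysines in the endoplasmic reticulum before its chains fold, and it then needs Tango1 to leave in large transport carriers.

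RNA came from cells pelleted from the hemolymph of larvae aged 96 to 102 h after egg laying. Cg-Gal4 females, whose driver is active in the fat body as well as in hemocytes, were crossed so that larvae were either Cg-Gal4>CS, the control, or Cg-Gal4>UAS-abd-A, in which the Hox gene abd-A was overexpressed, and larvae of both groups carried the driver. CS is read here as Canton-S, the wild type named for the study. The control had 2 libraries and the abd-A group 3, each made from 20 pooled larvae. The labels do not say whether pools of a genotype came from separate crosses, so p-values measure the spread between these pools.

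The total of counts on genes was 1252969 in control 1, 2567624 in control 2 and 3848911 to 4959111 with abd-A, which was 5.01% to 19.8% of the minimum of 25000000 reads stated for a sample. The abd-A gene itself was counted 0 and 21 times in controls, but 620, 474 and 638 times in the abd-A libraries, a log2 fold change of 4.80 (SE 0.66, edgeR adjusted p = 0.000955). The 2 controls were less alike than the abd-A libraries, with a chi-square of 32.9 for each degree of freedom against 6.80 to 11.5 between abd-A libraries. A value without a library is therefore given below where leaving it out changed the call. This holds for the 6 genes and the named pathway and opposite-strand genes, with Kul, Reck, hep, bsk, puc and grnd excepted. Of the hemocyte markers, He and srp were present in all libraries. The mean of He was 448.1 CPM in controls and 2133 CPM with abd-A, and it was called higher. For srp the means were 476.3 and 527.5 CPM, and it was not called. All 8 lamellocyte markers were called higher with abd-A, and their summed level was 1141 to 1581 CPM (counts scaled to library size) in controls and 18940 to 22020 CPM in abd-A libraries. Of 6 plasmatocyte markers 4 were called lower, and of 5 crystal cell markers 5. Of all genes tested 11.0% were called higher and 12.7% lower, and these shares stand beside each count of markers called. Fat body markers summed to 2771 CPM in control 1 and 22780 CPM in control 2, and to 507.3 to 1653 CPM with abd-A, with 6 of 7 called lower. In such bulk RNA a change in the number of cells of a type cannot be told apart from a change in RNA per cell, and this holds for every gene below.

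A gene was called higher or lower when its p, adjusted over 11624 genes by the Benjamini-Hochberg method in the quasi-likelihood test of edgeR, was under 0.05, together with a change of at least 2-fold. By this rule Mmp1 and Tango1 were called higher with abd-A, 2 of the 6 genes, where 11.0% of all genes were called higher. Timp was called lower, 1 of 6 against 12.7% of all genes. Mmp2, PH4alphaEFB and Plod were not called, so that 3 of 6 genes passed in either direction, against 23.7% of all genes. The CPM of the groups did not overlap for 6 of 6 genes, against 56.6% of all genes, with 4 genes higher (27.3% of all genes) and 2 genes lower (29.3% of all genes) in the abd-A libraries. With 2 libraries against 3, the smallest p of an exact permutation test on 1 gene (two-sided, as the doubled one-sided p) is 0.2.

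**Figure D1:**
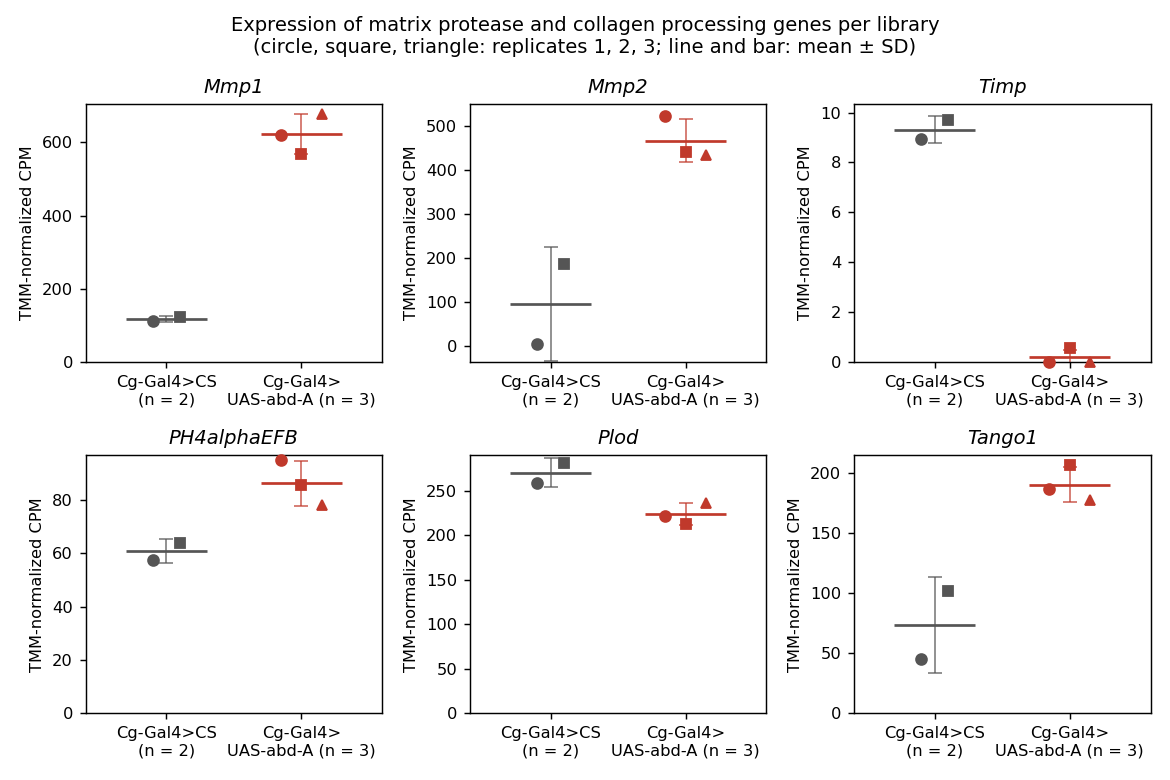
Normalised CPM (vertical axis, TMM scaling) of the 6 genes in each control library (grey) and each abd-A library (red), with lines and bars for the mean and SD. Mmp1 lies at 112.0 and 123.0 CPM in controls and at 569.1 to 677.4 CPM with abd-A, while the control values of Mmp2, 4.12 and 186.6 CPM, lie far apart.

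Mmp1, a matrix metalloproteinase of the fly, had 163 and 317 counts in controls and 2776, 2089 and 3183 counts with abd-A. In CPM these were 112.0 and 123.0 against 620.4, 569.1 and 677.4. Both controls lay close together and well below each abd-A library. The mean was 117.5 ± 7.77 CPM in controls (SD, n = 2) and 622.3 ± 54.1 CPM with abd-A (SD, n = 3), a 5.29-fold change and a log2 fold change of 2.40 (SE 0.22, 95% interval 1.90 to 2.90, edgeR adjusted p = 0.000106). Mmp1 was called under each of 14 alternative settings, with log2 fold changes between 2.22 and 2.45 and adjusted p from 1.12e-29 to 0.0033 over edgeR, DESeq2 and limma-voom. Its level moved in the same direction as the lamellocyte markers given above, and their part in this change was not tested. The gene (FBgn0035049) lies on the minus strand of chromosome 2R at 24671294 to 24688184 in dm6, with 10 annotated transcripts.

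Mmp2, the other matrix metalloproteinase, had 6 and 481 counts in controls and 2344, 1622 and 2046 counts with abd-A. These counts correspond to 4.12 and 186.6 CPM in controls and to 523.9, 441.9 and 435.4 CPM in abd-A libraries. The abd-A libraries were alike and all higher than either control, but the controls themselves differed widely. The means were 95.35 ± 129 CPM (SD, n = 2) and 467.1 ± 49.3 CPM (SD, n = 3), and the log2 fold change of 2.26 (SE 0.91, 95% interval 0.22 to 4.29) did not pass the test (edgeR adjusted p = 0.0945). Its size depended on which control was used. Without control 1 the log2 fold change of Mmp2 was 1.31 (edgeR adjusted p = 4.2e-05), and without control 2 it was 6.79 (edgeR adjusted p = 1.65e-08), where the remaining control is assumed to vary like the abd-A libraries. The control with the lower Mmp2 level, control 1, was also the one with fewer total counts and less fat body marker RNA, and the part of either in this difference was not tested. Mmp2 (FBgn0033438) lies on the minus strand of chromosome 2R at 9611139 to 9683858.

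Timp, the inhibitor of these proteases, had 13 and 25 counts in controls and 0, 2 and 0 counts with abd-A. The controls agree closely once scaled, at 8.93 and 9.70 CPM, and no abd-A library exceeded 0.545 CPM. Counting intervals (exact Poisson, 95%, counting error only) were 6.92 to 22.2 and 16.2 to 36.9 counts for the controls and did not reach beyond 7.22 counts in any abd-A library. The control mean of 9.31 ± 0.543 CPM (SD, n = 2) was 13.1-fold above a floor of 3 counts in each abd-A library. This value is nominal, since the counting intervals of abd-A libraries reach above 3 counts and the error of the control counts is left out. The fitted log2 fold change of -5.52, which is no bound at such counts, had an edgeR adjusted p of 0.0375. This call depended on single libraries. It was lost without control 2 (edgeR adjusted p = 0.0529), without abd-A 1 (0.12), without abd-A 2 (0.0522) and without abd-A 3 (0.115), although 8 of 13 settings kept it and the direction never turned. Timp (FBgn0025879) is on the minus strand of chromosome 3R at 10203875 to 10213007, inside the span of the neuronal gene Syn. Neuron markers summed to 201.3 and 394.5 CPM in controls and 68.17 to 124.8 CPM with abd-A, with 2 of 5 called lower. Muscle markers fell from 1222 and 2667 CPM to between 306.2 and 432.4 CPM, with 6 of 6 called lower, where 12.7% of all genes were called lower. The part of these tissues in the Timp counts was not tested.

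Timp relative to its targets was taken per kb of exon, as the CPM per kb of Timp divided by that of Mmp1 and Mmp2 together. This ratio was 23.4% in control 1 and 9.79% in control 2. It was 0, 0.167% and 0 in the abd-A libraries, in which 3 counts of Timp would have given 0.182%, 0.251% and 0.178%. All abd-A libraries were thus below both controls and below their own detection limit. The controls also differed in the balance of the proteases, since the ratio of Mmp2 to Mmp1 per kb was 0.0352 in control 1 and 1.45 in control 2, while it stayed between 0.614 and 0.807 in abd-A libraries.

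Prolyl hydroxylation of collagen is carried by PH4alphaEFB, the catalytic subunit of prolyl 4-hydroxylase in hemocytes and fat body. It had 84 and 165 counts in controls and 425, 314 and 368 with abd-A, that is 57.7 and 64.0 CPM against 94.99, 85.54 and 78.31 CPM. The groups did not overlap, but the distance between them was small. The means were 60.85 ± 4.46 CPM in controls (SD, n = 2) and 86.28 ± 8.36 CPM with abd-A (SD, n = 3), and the log2 fold change was 0.50 (SE 0.25, 95% interval -0.06 to 1.06, edgeR adjusted p = 0.161), and no alternative setting gave a call. PH4alphaEFB (FBgn0039776) is on the plus strand of chromosome 3R at 30466050 to 30485799.

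Plod, the lysyl hydroxylase, had 377 and 726 counts in controls and 993, 781 and 1112 counts with abd-A. Scaled, the controls had 259.0 and 281.6 CPM and the abd-A libraries 221.9, 212.8 and 236.6 CPM, so that abd-A libraries lay slightly below both controls. The means of 270.3 ± 16.01 CPM (SD, n = 2) and 223.8 ± 12.0 CPM (SD, n = 3) gave a log2 fold change of -0.27 (SE 0.20, 95% interval -0.72 to 0.17, edgeR adjusted p = 0.328). The interval lies within 2-fold in both directions. Over the alternatives its log2 fold change ran from -0.46 to -0.23. Plod (FBgn0036147) lies on the minus strand of chromosome 3L at 11198166 to 11206016.

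Tango1, which sits at endoplasmic reticulum exit sites and loads collagen and other large cargo, had 66 and 262 counts in controls and 834, 756 and 834 with abd-A. In CPM these were 45.34 and 101.6 against 186.4, 206.0 and 177.5. Each abd-A library was above both controls, and control 1 was lower than control 2. Its mean was 73.48 ± 39.8 CPM in controls (SD, n = 2) and 189.9 ± 14.6 CPM with abd-A (SD, n = 3), which is 2.55-fold higher, with a log2 fold change of 1.35 (SE 0.33, 95% interval 0.61 to 2.09, edgeR adjusted p = 0.0155). Without control 1 the log2 fold change was 0.89 (edgeR adjusted p = 0.00219), under the 2-fold threshold, and without control 2 it was 2.04. Leaving out abd-A 1, 2 or 3 raised the edgeR adjusted p of Tango1 to 0.0709, 0.0771 and 0.0545. Tango1 (FBgn0286898) is on the plus strand of chromosome 2L at 6649388 to 6654574.

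**Figure D2:**
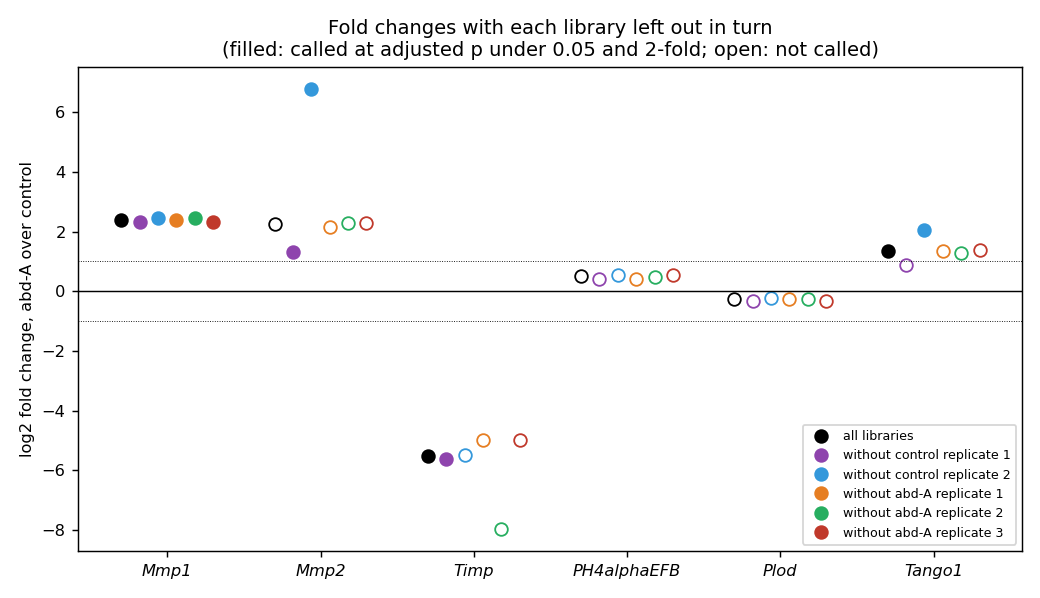
Log2 fold change (vertical axis) of each of the 6 genes with all libraries and with 1 library omitted at a time, filled where the gene was called and open where it was not. Mmp1 stays between 2.32 and 2.45, whereas Mmp2 moves between 1.31 and 6.79 with the choice of control.

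Levels of different genes were compared as mean CPM per kb of merged exons. In controls the order was Plod (102.8 ± 6.09), PH4alphaEFB (27.07 ± 1.98), Mmp1 (24.27 ± 1.61), Mmp2 (18.83 ± 25.5), Tango1 (15.71 ± 8.51) and Timp (5.85 ± 0.341), each SD over 2 libraries. Mmp2 overlapped both of its neighbours in that order. In abd-A libraries the order was Mmp1 (128.5 ± 11.2), Mmp2 (92.21 ± 9.74), Plod (85.09 ± 4.58), Tango1 (40.6 ± 3.11), PH4alphaEFB (38.38 ± 3.72) and Timp (0.114 ± 0.198), each SD over 3 libraries. There Mmp2 and Plod overlapped in range, as did Tango1 and PH4alphaEFB. In mean level Mmp1 thus went from the third to the highest of the 6 genes, and Plod, itself not called, from the highest to the third. Single libraries differed from this order. Mmp1 was below Mmp2 in control 2 (25.4 against 36.84), and Plod was above Mmp2 in abd-A 3 (89.98 against 85.96).

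Col4a1 and vkg, the collagen IV chains, were called lower, with log2 fold changes of -1.64 (SE 0.21, edgeR adjusted p = 0.000729) and -1.19 (SE 0.21, edgeR adjusted p = 0.00356), and their levels fell from 1343 ± 65.6 to 432.2 ± 51.2 and from 764.1 ± 53.8 to 335.4 ± 41.5 CPM per kb. A ratio of 2 genes within a library does not depend on how libraries are scaled, so the counts were also set against Col4a1, a choice made after the values were seen. For each 1000 counts of Col4a1 there were 13.07 and 15.38 counts of Mmp1 in controls and 219.3, 247.3 and 236.5 with abd-A, a ratio of means of 16.48. Mmp2 had 0.481 and 23.33 counts against 185.2, 192.0 and 152.0. The groups were far apart for both proteases.

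The processing genes, too, had more counts relative to the collagen transcript. Col4a1 itself fell to 0.322 times its control level in the fit, so a gene of unchanged CPM also rises on this ratio. Tango1 had 5.291 and 12.71 counts for each 1000 of Col4a1 in controls and 65.9, 89.51 and 61.96 with abd-A. PH4alphaEFB went from 6.735 and 8.004 to 33.58, 37.18 and 27.34, a ratio of means of 4.437. Plod went from 30.23 and 35.22 to 78.46, 92.47 and 82.62, a ratio of means of 2.583. In its own CPM, Plod was not higher with abd-A, and PH4alphaEFB was not called. Timp was the exception, with 1.042 and 1.213 counts in controls and 0, 0.2368 and 0 with abd-A. Against vkg in place of Col4a1 the ratios of means were smaller but in the same direction, 12.06 for Mmp1, 10.71 for Mmp2, 5.866 for Tango1, 3.251 for PH4alphaEFB and 1.89 for Plod. These ratios are descriptions and carry no test.

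**Figure D3:**
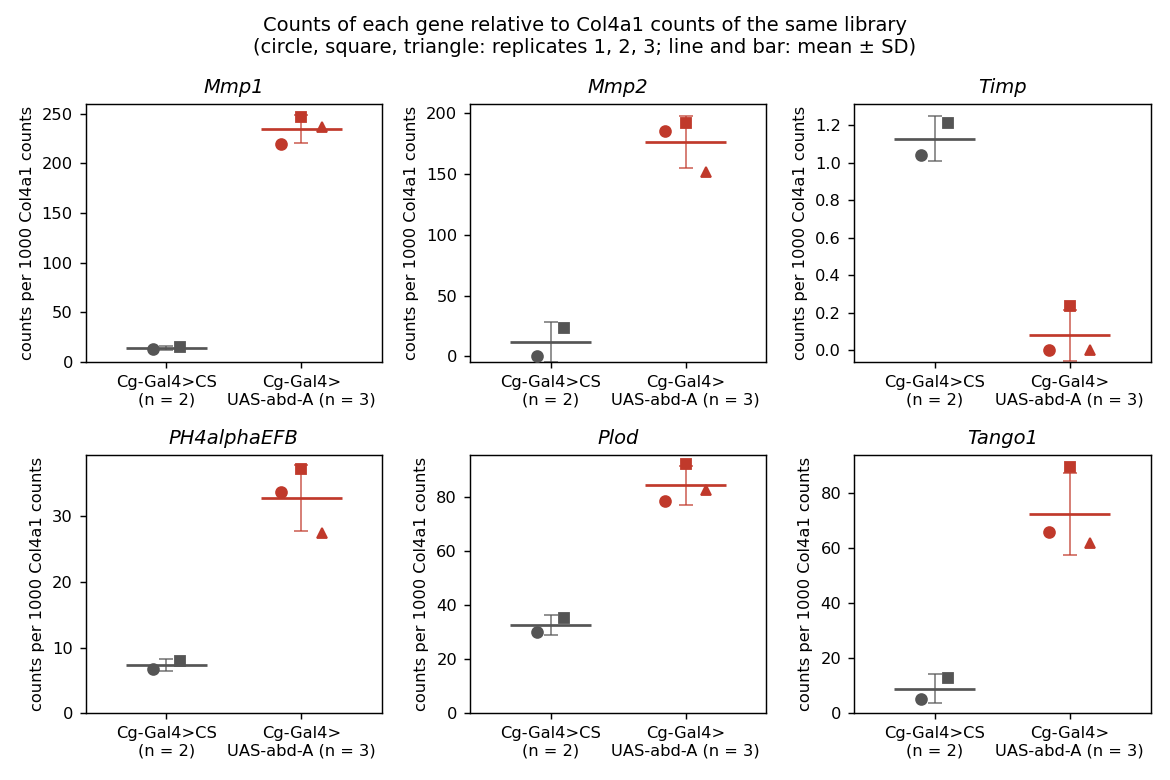
Counts of each gene for each 1000 counts of Col4a1 in the same library (vertical axis), for control (grey) and abd-A (red) libraries, with mean and SD. Mmp1, Mmp2, PH4alphaEFB, Plod and Tango1 are higher with abd-A and Timp is lower, and in none of the panels do the groups overlap. Col4a1 itself was called lower with abd-A, which raises these ratios.

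The 54 tested genes that stand around these 6 in their pathways had a median log2 fold change of 0.69, against -0.17 for all genes tested. Of them 18 were called higher and 8 lower, where 11.0% of all genes were called higher and 12.7% lower. These shares of all genes also stand beside the counts of each list below. The lists behind these counts were chosen with earlier results in view, and no test was made over them.

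A list of 11 other genes held metalloproteases and proprotein convertases, and Reck, a membrane-anchored inhibitor of matrix metalloproteinases. Of the 11 genes 3 were called higher and 3 lower, with a median log2 fold change of -0.19. Reck, added here after its values were seen, was not called. It was at 58.67 ± 21.0 CPM in controls (SD, n = 2) and 61.09 ± 6.90 CPM with abd-A (SD, n = 3). Its counts are not in the ratio of Timp to its targets given above. AdamTS-A, a secreted protease of the ADAMTS family, had 28 and 45 counts in controls and 4263, 2845 and 3889 with abd-A, for a log2 fold change of 5.54 (SE 0.27, edgeR adjusted p = 9.52e-06). Meltrin, a membrane protease of the ADAM family, had a log2 fold change of 2.02 (SE 0.23, edgeR adjusted p = 0.00036). Fur1, a furin that can cut the propeptides of secreted proteins, had a log2 fold change of 1.97 (SE 0.27, edgeR adjusted p = 0.000924). The 3 lower genes were sona, mmd and Kul, the last named after its values were seen. The first of these had 59 and 8 counts against 1, 11 and 1, and its call was lost without control 1 (edgeR adjusted p = 0.643), without abd-A 1 (0.146) and without abd-A 3 (0.13). The mmd call was lost without control 2 (edgeR adjusted p = 0.142), without abd-A 1 (0.0616) and without abd-A 2 (0.0938). Proteases near Mmp1 and Mmp2 in function thus moved in both directions.

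The other alpha subunits of prolyl 4-hydroxylase were hardly expressed. Of the 7 genes 5 were tested, with edgeR adjusted p of 0.541 or more, and their summed level was 5.50 to 11.3 CPM in controls and 0.224 to 12.8 CPM with abd-A, below that of PH4alphaEFB in every library. The beta subunit Pdi, which also folds other proteins, had 1614 and 2249 counts in controls and 5446, 4833 and 6167 with abd-A, for a log2 fold change of 0.37 (SE 0.21, edgeR adjusted p = 0.209). Neither subunit of the enzyme was therefore called, and an antisense gene overlaps 21.5% of the exons of Pdi.

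Among 9 tested genes of folding and cross-linking, 4 were called higher and 1 lower, with a median of 0.85. Gp93, an endoplasmic reticulum chaperone, had a log2 fold change of 2.08 (SE 0.21, edgeR adjusted p = 0.000173). Calr, calreticulin, had one of 1.59 (SE 0.23, edgeR adjusted p = 0.00127). Hsc70-3, the fly BiP, had one of 1.15 (SE 0.21, edgeR adjusted p = 0.00384), and this fell to between 0.96 and 1.00, under the 2-fold threshold, with other scalings of the libraries. The gene called lower was Pxn, peroxidasin, which cross-links collagen IV and is also a plasmatocyte marker, with a log2 fold change of -1.59 (SE 0.23, edgeR adjusted p = 0.0011).

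Tango1 works with the COPII coat and with Rab proteins, and 11 genes of this export machinery were tested. Of them 7 were called higher, against 11.0% of all genes. Log2 fold changes were above 0 in 11 of 11, with a median of 1.103 against -0.17 for all genes tested. Rab1, a GTPase of transport between the endoplasmic reticulum and the Golgi, had a log2 fold change of 2.03 (SE 0.29, edgeR adjusted p = 0.00106), and an antisense gene overlaps 41.1% of its exons. The coat subunits Sec13 and Sec23 had log2 fold changes of 1.68 (SE 0.29, edgeR adjusted p = 0.00282) and 1.22 (SE 0.23, edgeR adjusted p = 0.00499). Rab10, which directs basement membrane proteins to the basal side of epithelial cells, had one of 1.20 (SE 0.23, edgeR adjusted p = 0.00508).

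Of 10 basement membrane substrates 4 were called lower, against 12.7% of all genes, and the median was -0.97. Log2 fold changes were above 0 in 3 of 10, and 0 were called higher. Beside both collagen IV chains these were SPARC, a collagen-binding protein, with a log2 fold change of -2.38 (SE 0.21, edgeR adjusted p = 9.46e-05), and the laminin subunit LanA, with -1.09 (SE 0.20, edgeR adjusted p = 0.00464). The LanA call was lost without abd-A 1 (edgeR adjusted p = 0.0631).

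Mmp1 is a known target of Jun kinase (JNK) signalling and its AP-1 transcription factors in fly tissues, so 8 genes of that pathway were followed. Of these 4 were called higher, against 11.0% of all genes. Log2 fold changes were above 0 in 7 of 8, with a median of 1.22 against -0.17 for all genes tested. The 4 genes not called, named after their values were seen, were hep (0.85), bsk (1.07), puc (0.70) and grnd (-2.15, at 0 to 10 counts). Jra, the fly Jun, had a log2 fold change of 2.05 (SE 0.23, edgeR adjusted p = 0.000355), and kay, the fly Fos, had one of 1.37 (SE 0.22, edgeR adjusted p = 0.00231). The kinase gene msn, which is also one of the lamellocyte markers, had one of 1.70 (SE 0.21, edgeR adjusted p = 0.000565). The ligand gene egr had one of 1.53 (SE 0.36, edgeR adjusted p = 0.0136), and its call was lost without abd-A 1 (0.0811) and without abd-A 3 (0.0582). Whether these genes and Mmp1 changed in the same cells was not tested.

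**Figure D4:**
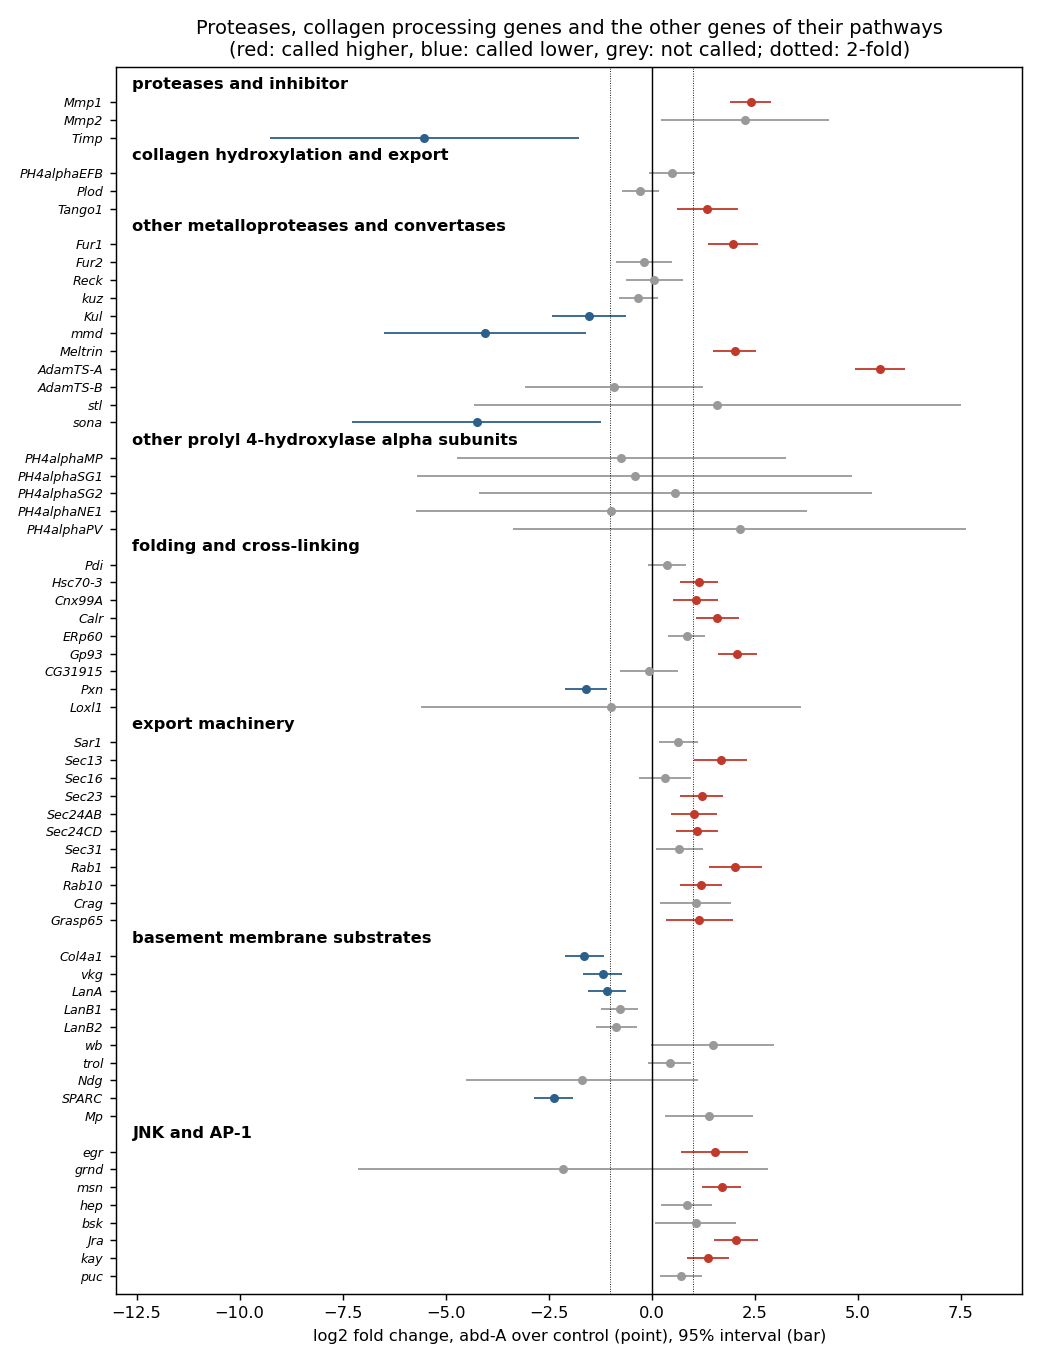
Log2 fold change (horizontal axis, abd-A over control) with its 95% interval for the 6 genes and the tested genes of their pathways, coloured by call, with dotted lines at 2-fold. Export genes lie to the right of the zero line in 11 of 11 cases, where the median of all genes tested is -0.17. Of basement membrane genes 4 of 10 are called lower, against 12.7% of all genes, and 3 of 10 lie to the right of the zero line.

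A gene on the opposite strand overlaps exons of Mmp1, of Mmp2 and of Timp, 3 of 6 genes, where 34.9% of all genes tested share an exon in this way. The library kit keeps the strand of the RNA, and the strand setting used in counting is not given in the sources used here. Mmp1 shares 284 bases, 5.87% of its exons, with Pof, a gene for a protein of the fourth chromosome. Pof had 281 and 380 counts in controls and 2935, 2864 and 3180 with abd-A, for a log2 fold change of 2.05 (SE 0.23, edgeR adjusted p = 0.000348). Its counts therefore moved with those of Mmp1. Mmp2 shares 287 bases, 5.67% of its exons, with the noncoding gene asRNA:CR44069, which had 43 and 287 counts in controls and 1161, 1349 and 1151 with abd-A. Its log2 fold change was 2.02 (SE 0.47, edgeR adjusted p = 0.0131), and the call was lost without abd-A 1 (0.0515) and without abd-A 2 (0.0704). Like Mmp2, this gene was lowest in control 1.

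Timp shares 249 bases, 15.7% of its exons, with Syn, the fly synapsin gene. Syn had 57 and 67 counts in controls and 26, 4 and 10 with abd-A, for a log2 fold change of -3.40 (SE 0.72, edgeR adjusted p = 0.00848), so that it fell together with Timp. Counts per base of exon were 2.41 to 4.16 times higher for Pof than for Mmp1 over the 5 libraries. For asRNA:CR44069 they were 26.9 times those of Mmp2 in control 1 and 1.86 to 3.12 times in the other libraries. Over 409 to 435 pairs of an antisense gene and the coding gene it overlaps, the median of this ratio was 5.06 to 8.89. For Syn the ratio to Timp was 1.2 and 0.735 in controls and 0.548 in abd-A 2, the abd-A library with counts of both. Whether the table counts RNA of the strand of each gene or of the opposite strand cannot be read from the sources used here and was not tested, for these genes or for the table as a whole. The values of every gene given here, with or without such an overlap, hold only under the assumption that the table counts RNA of the gene's own strand. The low totals given at the start, 5.01% to 19.8% of the stated reads, and the denser antisense genes are the values that bear on it. PH4alphaEFB, Plod and Tango1 share no exon with a gene on the opposite strand, but their values rest on the same assumption.

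**Figure D5:**
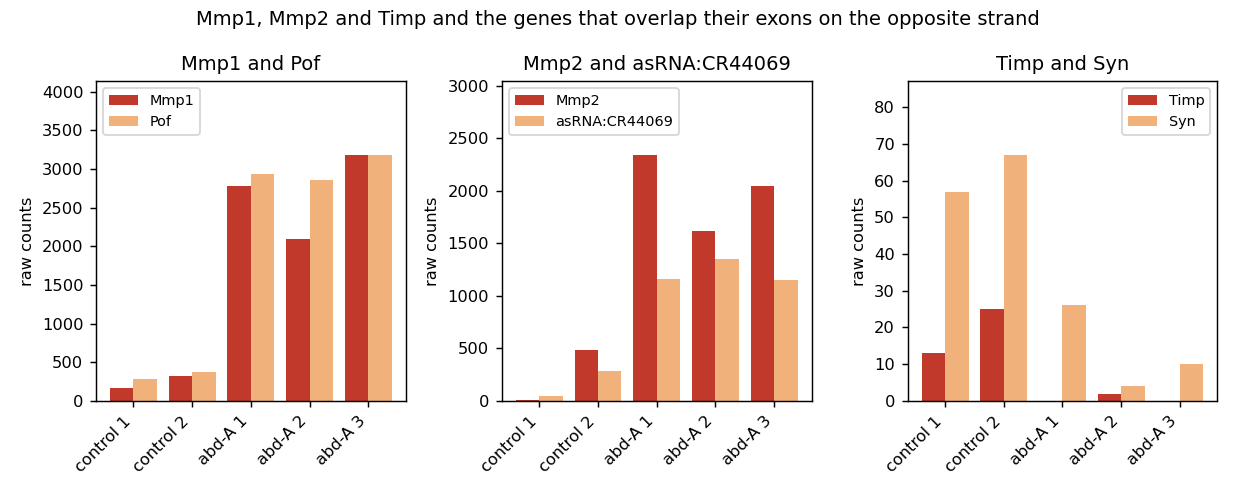
Raw counts (vertical axis) of Mmp1, Mmp2 and Timp (red) and of the gene on the opposite strand that overlaps each (orange), by library. Pof and asRNA:CR44069 are high in the libraries in which Mmp1 and Mmp2 are high, and Syn, like Timp, is higher in controls, with 57 and 67 counts.

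The genes with the most similar profile over the 5 libraries were sought by the root mean square distance of log2 CPM centred on each gene, among coding genes with a mean of at least 50 counts. Nearest to Mmp1 were parvin, at a distance of 0.0434, and shv, at 0.0602. Mmp2 had no neighbour as close, with Epac at 0.143 and CG11583 at 0.18. Timp was nearest to CG16779 (0.176) and to the muscle gene bt (0.177). With 0, 2 and 0 counts of Timp in abd-A libraries, these distances depend on the 0.5 CPM added before the log2. Genes with counts as low as those of Timp were not among the candidates, so this match is nominal. For Tango1 these were CG1907 (0.0604) and RASSF8 (0.0649), for PH4alphaEFB Mcm10 (0.0551) and Ns2 (0.0593), and for Plod bchs (0.0466) and CG8155 (0.049). With 5 libraries in 2 groups these distances mostly reflect the difference between the groups and are given as a description.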

How the data were processed

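Hemolymph RNA of 2 control and 3 abd-A pools of larvae was sequenced as paired reads of 75 bases with a strand-keeping kit. The authors aligned to dm6 with STAR and counted with HTSeq, and their deposited table has raw counts, without normalization. The submitters' processing notes name bcl2fastq, FastQC 0.11.7, STAR 2.5.2, HTSeq 0.11.2 and DESeq2. The annotation release, strand setting and counting mode are not given in the sources used here. The sample titles gave the groups and replicate numbers.

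Coordinates, exon lengths and overlaps came from Ensembl release 115 in dm6 coordinates, which held 17710 of the 17807 gene identifiers. Lengths are those of merged exons. The 11624 genes whose counts summed to at least 10 were normalised with TMM and compared with edgeR 4.0.16 (quasi-likelihood F-test, R 4.3.3) in a fit of all 5 libraries without covariates, since the methods read here name no covariate. Standard errors follow from each fold change with its F statistic. CPM are TMM-normalised, and 3 counts, the floor, were 2.06 and 1.16 CPM in control 1 and 2 and 0.638 to 0.817 CPM in abd-A libraries. The Poisson intervals of Timp and the floors cover counting error only, because amplified reads are not independent molecules. The fit was tested on simulated counts. Tables were made with Python 3.11.15 and pandas 2.3.3.

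The genes and lists were chosen with earlier results of these data known, and 1 of 117 listed names matched no gene. Named are the 6 genes, every called gene of a pathway list or the 4 largest changes where more than 4 were called, Col4a1, vkg, Pdi and Fur1, genes overlapping the 6 on the opposite strand, and for each of the 6 the 2 coding genes of nearest profile (0.5 CPM added before the log2). Beside the lists in the text, markers of midgut, salivary gland and testis were counted, with 2 of 5, 0 of 1 and 0 of 3 tested genes called higher and 0, 0 and 3 called lower. The shares of all genes were 11.0% called higher and 12.7% called lower. Alternatives were other scalings (DESeq2 1.42.0 size factors, upper quartile, library totals), other count filters, the DESeq2 Wald test, limma-voom (limma 3.58.1), a replicate block, omission of single libraries and no fold threshold.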

Additional observations from a re-analysis of the deposited data

How the results depend on the processing

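None of the fold changes of the named genes that were refitted changed direction under the settings tried. Kul, Reck, hep, bsk, puc and grnd were not refitted. The 2 calls higher among the 6 genes ran from 1 to 3 and the 1 call lower from 0 to 1 with a library left out, and the latter was 0 with at least 10 counts required in every library, where Timp and Mmp2 were not tested. Over all genes, calls higher ran from 693 to 2278 and calls lower from 744 to 2094 with a library left out, and calls lower were 911 with at least 10 counts in every library. Over the pathway genes, calls ran from 13 to 18 higher and from 4 to 6 lower with an abd-A library left out, and were 22 and 10 with no fold threshold. From 18 higher and 8 lower in the main fit, they went to 13 and 9 with DESeq2 size factors. The same 13 and 9 were found with the upper quartile, with library totals and with the DESeq2 Wald test. The log2 fold change of Mmp2 ran from 1.31 to 6.79, that of Timp from -7.96 to -4.97 and that of Tango1 from 0.89 to 2.04 with a library left out. Mmp2 was called without a low count filter (2.26, edgeR adjusted p = 2.19e-14) and with limma-voom (3.23, adjusted p = 0.0192). The cause of these changes was not tested. Timp over Mmp1 and Mmp2 was 5.41% in controls from counts without length and 16.6% with it, and 9.79% to 23.4% with a control left out. Over all genes the median, -0.17 on the log2 scale, moved to -0.32 with DESeq2 size factors, -0.35 with the upper quartile and -0.36 with library totals, and the share of calls that were higher from 46.2% to 38.1%, 36.5% and 36.6%, while the calls of the 6 genes stayed. It turned to 0.01 (49.9% higher) with at least 10 counts in every library and to 0.10 (52.1%) without control 2.

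The labels do not say whether libraries with the same replicate number shared more than that number. The deviations of same-numbered libraries from their group means correlated at 0.018 and -0.002. With 2 controls, the deviations of one are the reverse of the other, so these values cannot decide it. With a replicate block, Mmp2 was called (3.55, edgeR adjusted p = 1.66e-07), Timp was not (-5.28, edgeR adjusted p = 0.181), and all-gene calls were 867 higher and 831 lower, calls among the 6 genes 3 and 0, and among pathway genes 11 and 3. The median was then -0.08 and 51.1% of calls were higher. Of the named pathway genes, the block also ended the calls of vkg (edgeR adjusted p = 0.0815), LanA (0.128), Sec23 (0.0624), Rab10 (0.0736), Hsc70-3 (0.111), sona (0.238) and mmd (0.0534). With 13 and 25 counts of Timp in controls, depth limits its fold change to a nominal value against the floor.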
